A study of Mus musculus with 10 samples.

Results

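The 9 genes described here encode 3 receptors of the ErbB family, Egfr, Erbb2 and Erbb3, and 6 growth factors of the same system, Egf, Areg, Ereg, Tgfa, Btc and Hbegf. They were taken by gene name from 30295 gene rows, and each has 1 row in both deposited tables. All 9 were among the 15839 genes that passed a filter on low counts, so every one was tested.

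The cells were intestinal stem cells sorted from C57Bl/6 mice, and the study compared active with reserve stem cells and free feeding with calorie restriction in each. Active stem cells carried Lgr5-EGFP-IRES-CreER, in which the Lgr5 locus drives EGFP. Reserve stem cells carried Hopx-CreER::LSL-tdTomato, in which a Cre driven by Hopx removes a stop cassette, so that a cell and its descendants keep tdTomato. Mice were fed ad libitum (AL) or were Calorie Restricted (CR), which gave 3 libraries of each diet for Lgr5 cells (groups Lgr5 AL and Lgr5 CR) and 2 of each diet for Hopx cells (Hopx AL and Hopx CR). The 10 libraries came from 10 animals in 5 isolations: isolations 1 to 3 were Lgr5 cells, 4 and 5 were Hopx cells, and each held 1 AL and 1 CR animal. No source used here gives the age or sex of the mice, the degree or length of the restriction or the gut segment. Since an isolation holds 1 reporter line, a difference between Hopx and Lgr5 cells cannot be told apart from one between isolations or lines.

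ErbB receptors are membrane tyrosine kinases that act in pairs. Egfr binds all 6 growth factors measured here, Erbb2 has no known ligand of its own and serves as the preferred partner, and Erbb3, whose kinase is nearly inactive, binds neuregulins and recruits PI3K when paired. The ligands are made as membrane-bound precursors that proteases cut free. In the crypt, EGF from Paneth cells and neighbouring stroma sustains stem cell division, which is why EGF is a standard part of gut organoid medium.

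Depth was lowest in Lgr5 AL replicate 3, with 20251405 estimated counts, and highest in Hopx CR replicate 1, with 87215705. Lgr5 mRNA averaged 155 and 219 CPM (counts per 1e6 counts, after scaling between libraries) in Lgr5 AL and Lgr5 CR against 78.6 and 114 in Hopx AL and Hopx CR. Hopx mRNA was not higher in the Hopx sorts, at 127, 150, 108 and 99.1 CPM in the same order, so the mRNA of that gene does not bear out the sort label. Paneth markers were present in every library, their 10 genes summing to 16040 to 64410 CPM under AL and 48820 to 66190 under CR in Lgr5 cells, and to 83380 to 206400 under AL and 62300 to 98190 under CR in Hopx cells. These ranges overlapped under CR and did not under AL. The Y-linked gene Eif2s3y was at or under 0.125 TPM in both libraries of isolation 3 and in Hopx CR replicate 1, against 8.91 TPM or more elsewhere, so 1 isolation, number 4, joined animals that differed in it. In sorted bulk samples, fewer cells of a type and less RNA per cell cannot be told apart.

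The promoters of Erbb2 and Tgfa are shown because these genes stood higher under CR within every isolation on the scaled count scale, and that of Areg because its ratio of CR to AL differed widely between isolations. Each holds 250 bases before to 50 after the RefSeq start (GRCm38.p6, plus strand, 5′ to 3′). RefSeq entries were found for 6 of the 9 genes, and Erbb3, Ereg and Hbegf had none. Capitals mark every match, on either strand, to 5 motifs. The GC box was searched as GGGCGG. The letters of the CCAAT box are its name. The TATA box was searched as TATAAA. The cAMP response element was searched as TGACGTCA. The AP-1 site was searched as TGANTCA.
Erbb2, chr11:98412234-98412533: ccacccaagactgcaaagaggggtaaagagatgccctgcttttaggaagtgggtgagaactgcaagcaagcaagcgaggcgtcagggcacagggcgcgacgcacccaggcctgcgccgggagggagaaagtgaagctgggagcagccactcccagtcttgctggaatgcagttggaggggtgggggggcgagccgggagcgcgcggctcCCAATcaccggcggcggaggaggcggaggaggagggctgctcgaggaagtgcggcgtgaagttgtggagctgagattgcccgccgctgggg
Tgfa, chr6:86194972-86195271: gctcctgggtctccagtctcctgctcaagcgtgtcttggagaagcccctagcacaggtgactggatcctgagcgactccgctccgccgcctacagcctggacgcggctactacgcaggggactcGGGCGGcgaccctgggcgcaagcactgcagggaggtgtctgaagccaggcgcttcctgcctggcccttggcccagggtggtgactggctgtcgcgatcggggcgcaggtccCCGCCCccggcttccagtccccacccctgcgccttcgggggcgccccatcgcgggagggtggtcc
Areg, chr5:91139349-91139648: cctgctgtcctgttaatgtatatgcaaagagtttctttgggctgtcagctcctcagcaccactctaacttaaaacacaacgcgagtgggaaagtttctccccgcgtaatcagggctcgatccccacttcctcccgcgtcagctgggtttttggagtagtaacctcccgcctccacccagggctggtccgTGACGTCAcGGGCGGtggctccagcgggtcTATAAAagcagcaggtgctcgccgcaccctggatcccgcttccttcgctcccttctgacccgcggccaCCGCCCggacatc
The Erbb2 window holds 1 CCAAT box at -41 from the start, and the Tgfa window holds 2 GC boxes at -126 and -15. Areg has a cAMP response element at -61, which its GC box at -52 follows, a TATA box at -31 and another GC box at 38. Among 32851 mouse promoters of the same length, 35.7% hold a GC box, 37.4% a CCAAT box, 13.6% a TATA box, 1.8% the cAMP response element and 7.8% the AP-1 site. GC content was 66.0% for Erbb2, 70.7% for Tgfa and 59.3% for Areg, against a median of 52.7% over those promoters. These matches are descriptions of letters, and binding was not measured.

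Erbb3 had the highest level of the 9 genes per transcript length in each of the 10 libraries. In TPM, a relative level that corrects for length, Lgr5 cells held 60.5, 62.3 and 124 under AL and 113, 74.8 and 115 under CR, and Hopx cells 20.4 and 37.6 under AL and 59.0 and 59.1 under CR. Both Hopx AL libraries lay below all others, and the Hopx CR values lay just under the lowest Lgr5 value. In order of group means, Lgr5 CR (100.8 ± 22.5, SD, n = 3) and Lgr5 AL (82.2 ± 36.0, n = 3) overlapped, while Hopx CR (59.0 ± 0.0904, n = 2) and Hopx AL (29.0 ± 12.2, n = 2) each stood apart from the group above. TPM was lower in Hopx cells for genes at large. On log2(TPM + 1) the median difference of all genes, Hopx over Lgr5, was -0.63 under AL and -0.25 under CR. On scaled CPM the Hopx CR libraries, at 403 and 391, lay within the Lgr5 AL range of 331 to 450 for Erbb3. Its Hopx AL libraries, at 194 and 267, lay below all others on that scale.

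Erbb2 came next, with 48.1, 53.3 and 85.4 TPM under AL and 64.3, 53.8 and 67.2 under CR in Lgr5 cells, and 17.7 and 29.1 under AL and 38.2 and 44.8 under CR in Hopx cells. The order of groups in TPM was nearly that of Erbb3: the Lgr5 groups overlapped at 62.3 ± 20.2 and 61.8 ± 7.1 TPM. Hopx CR followed at 41.5 ± 4.68 and Hopx AL at 23.4 ± 8.05, with no overlap in the last steps. On scaled CPM the Hopx CR libraries of Erbb2, at 204 and 232, overlapped the Lgr5 AL libraries, at 206 to 243. Egfr, the receptor that binds the ligands measured here, was the lowest of the 3 receptors in every library. Its values in Lgr5 cells were 8.38, 11.9 and 18.0 TPM under AL and 11.8, 11.2 and 13.4 under CR, and in Hopx cells 3.63 and 10.4 under AL and 9.24 and 10.4 under CR. By group mean, Egfr was highest in Lgr5 AL, which overlapped Lgr5 CR. In TPM the Lgr5 CR libraries all lay above the Hopx CR libraries, and Hopx CR and Hopx AL overlapped. On scaled CPM the Lgr5 CR and Hopx CR libraries overlapped, with Egfr means of 43.5 and 43.4. The lowest Egfr value was that of Hopx AL replicate 1.

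The balance among receptors was narrower than their levels. The ratio of Erbb3 to Erbb2 in TPM stayed between 1.15 and 1.75 over the 10 libraries, and that of Erbb3 to Egfr between 3.63 and 9.55. Erbb3 made up 48.8% to 59.7% of the summed receptor TPM, a sum that ran from 41.7 in Hopx AL replicate 1 to 227 in Lgr5 AL replicate 3. By group mean TPM, Erbb3 ranked at the 81.3 to 91.9 percentile of the tested genes, Erbb2 at the 78.0 to 86.4 and Egfr at the 55.4 to 57.5.

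**Figure D1:**
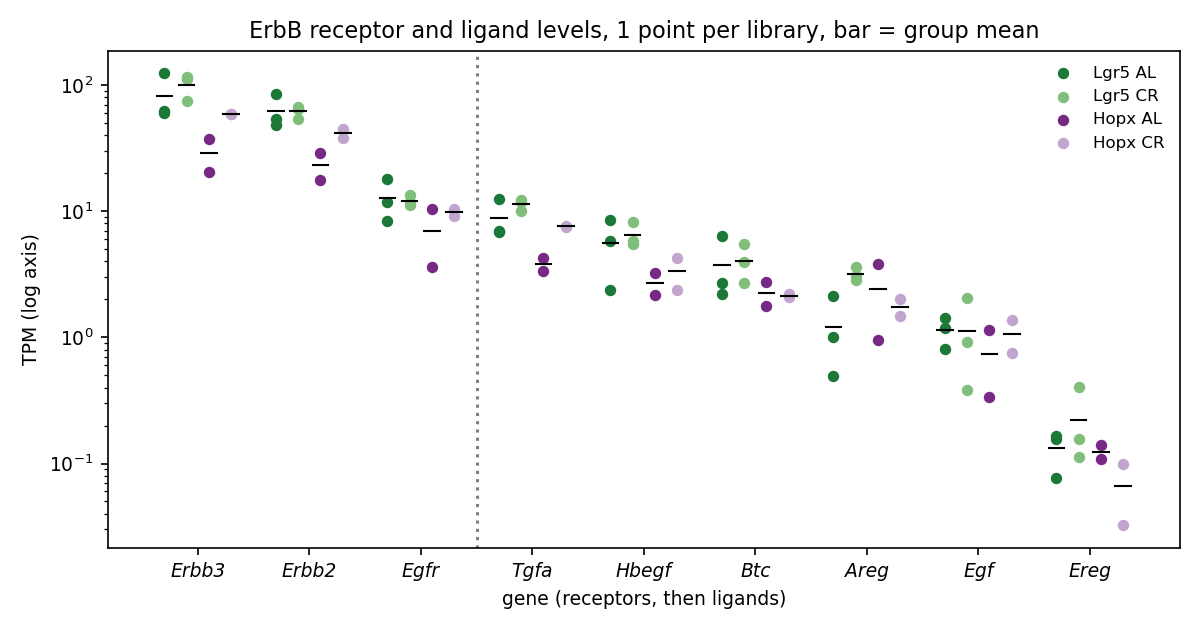
TPM on a log axis for the 3 receptors and the 6 ligands, 1 point per library (n = 3 for each Lgr5 group and n = 2 for each Hopx group), with a bar at the group mean. Erbb3 and Erbb2 lie above the other genes in every group, the Hopx AL points of both lie lowest, and Ereg lies below 0.5 TPM throughout.

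All 6 ligands were below Erbb2 and Erbb3 in every library, with their summed TPM at 11.7 to 30.8. Tgfa (transforming growth factor alpha), a ligand of Egfr alone, led the ligands in 8 of the 10 libraries and made up 27.0% to 50.8% of their sum. Hbegf led in Lgr5 AL replicate 1 and Areg in Hopx AL replicate 1. Tgfa stood at 6.87, 6.90 and 12.6 TPM under AL and 12.2, 11.9 and 10.0 under CR in Lgr5 cells, and at 3.35 and 4.29 under AL and 7.61 and 7.54 under CR in Hopx cells. Its Hopx AL libraries lay below the other 8, and the other 3 groups overlapped with their neighbours.

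Hbegf (heparin-binding EGF-like growth factor) was measured in Lgr5 cells at 8.58, 2.39 and 5.82 TPM under AL and 8.17, 5.76 and 5.52 under CR, and in Hopx cells at 2.16 and 3.25 under AL and 2.39 and 4.28 under CR. The spread within Lgr5 AL exceeded the distance between any of the group means. Btc (betacellulin), which binds Egfr and Erbb4, was at 2.19, 2.69 and 6.34 TPM under AL and 5.54, 2.70 and 3.94 under CR in Lgr5 cells. Its 4 Hopx values lay closer together, at 1.77 and 2.73 TPM under AL and 2.08 and 2.19 under CR. A single library of each Lgr5 group exceeded 4 TPM.

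Areg (amphiregulin), a low-affinity Egfr ligand, was at 2.12, 0.494 and 1.00 TPM under AL and 3.59, 2.83 and 3.07 under CR in Lgr5 cells, and at 3.84 and 0.958 under AL and 1.49 and 2.02 under CR in Hopx cells. The 3 Lgr5 CR libraries were close together and above the 3 Lgr5 AL libraries, whereas the Hopx AL libraries held both the highest value of all and one of the lowest. Areg rested on 15 to 379 estimated counts: the 15 counts of Lgr5 AL replicate 3 carry an exact 95% Poisson interval of 8.4 to 24.7, which covers counting error only. Egf itself was at 0.804, 1.18 and 1.43 TPM under AL and 0.925, 0.381 and 2.06 under CR in Lgr5 cells, and at 1.15 and 0.334 under AL and 1.38 and 0.758 under CR in Hopx cells, with every pair of neighbouring groups overlapping.

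Ereg (epiregulin) was the lowest of the 6 ligands in all 10 libraries. Lgr5 cells read 0.0769, 0.155 and 0.166 TPM under AL and 0.401, 0.157 and 0.112 under CR, and Hopx cells 0.141 and 0.108 under AL and 0.0324 and 0.0997 under CR. Between 8 and 57 estimated counts lay behind each of these values, so that the 8 counts of Lgr5 AL replicate 1 carry an interval of 3.5 to 15.8.

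In Lgr5 cells, all 9 genes had a positive log2 fold change of CR over AL, a sign that 51.8% of all tested genes had, with a median of 0.43 beside 0.02 for all genes. None of the 9 passed an adjusted p of 0.05 by edgeR's quasi-likelihood test, a threshold that 0.0189% of genes passed. At an unadjusted p under 0.05 there were 2 of the 9, Tgfa and Erbb3, both higher under CR, as were 5.57% of genes. Tgfa had the smallest p. Its scaled CPM was 26.6, 25.9 and 32.3 under AL and 47.0, 47.6 and 37.1 under CR, so the groups did not overlap, and the log2 fold change was 0.64 (SE 0.165, edgeR adjusted p = 0.249). DESeq2 called Tgfa in this contrast (0.60, adjusted p = 0.0427), with 2.30% of genes. Erbb3 was at 332, 331 and 450 CPM under AL and 614, 425 and 603 under CR, with 1 CR library inside the AL range and a log2 fold change of 0.56 (SE 0.213, edgeR adjusted p = 0.431).

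Areg had the largest fold change of the 9 in Lgr5 cells. It was at 1.96, 0.440 and 0.610 CPM under AL and 3.27, 2.69 and 2.69 under CR, without overlap, for a log2 fold change of 1.53 (SE 0.703, edgeR adjusted p = 0.518). Groups that do not overlap with CR higher were found for 7.41% of genes. For the other 6 genes the log2 fold changes ran from 0.18 (Egf) to 0.96 (Ereg), with adjusted p-values of 0.653 to 0.96 by edgeR. Without Lgr5 CR replicate 1 the value of Ereg was 0.20, and without Lgr5 CR replicate 3 that of Egf was -0.56, so the count of 9 positive values rests on that library. The Areg value was 2.46 without Lgr5 AL replicate 1.

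In Hopx cells, 6 of the 9 genes had a positive log2 fold change of CR over AL and 3 a negative one, where 48.6% of all genes were positive, with a median of 0.12 beside -0.02 for all genes. No gene of the 9 passed the adjusted threshold, which 0.0126% of genes did. At an unadjusted p under 0.05 there were 3 of the 9, Erbb2, Erbb3 and Tgfa, all higher under CR, as were 5.41% of genes. Tgfa was at 22.4 and 21.4 CPM under AL and 36.7 and 35.2 under CR, a log2 fold change of 0.71 (SE 0.203, edgeR adjusted p = 0.478). Erbb3 was at 194 and 267 CPM under AL and 403 and 391 under CR (0.79, SE 0.261, edgeR adjusted p = 0.504), and Erbb2 at 131 and 161 against 204 and 232 (0.58, SE 0.187, edgeR adjusted p = 0.504). In these 3 genes both CR values lay above both AL values, which held for 21.5% of all genes with CR higher.

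Areg, Ereg and Btc had negative fold changes in Hopx cells. Areg read 6.11 and 1.15 CPM under AL and 1.70 and 2.24 under CR, so the AL libraries enclosed the CR libraries (log2 fold change -0.89, SE 0.833, edgeR adjusted p = 0.792). Without Hopx AL replicate 1, the library with 6.11 CPM, the Areg fold change turned to 0.79. Ereg was at 0.903 and 0.521 CPM under AL and 0.145 and 0.439 under CR, and Btc at 7.65 and 8.83 against 6.48 and 6.59. Both had CR libraries below AL libraries without overlap, as 21.1% of genes did, with edgeR adjusted p-values of 0.703 for Ereg and 0.841 for Btc. Egfr, Egf and Hbegf had log2 fold changes of 0.29, 0.12 and 0.04, and that of Egfr turned to -0.15 without Hopx AL replicate 1.

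The difference between the diet effects of the populations was tested as an interaction over the same 10 libraries. It was below the adjusted threshold for none of the 9 genes, and 0.00631% of all genes passed. Areg had a difference of -2.41 on the log2 scale (SE 1.09, unadjusted p = 0.0519) and Ereg of -2.27 (SE 1.15, unadjusted p = 0.0776), both with an edgeR adjusted p of 1. For Areg this set a positive fold change in Lgr5 cells against a negative one in Hopx cells that rested on 1 library: without Hopx AL replicate 1 the difference was -0.70. The Ereg difference was -1.51 without Lgr5 CR replicate 1.

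Read within isolations, where each CR animal is set against the AL animal sorted with it, 3 of the 9 genes were higher under CR in all 5 isolations on scaled CPM: Erbb2, Erbb3 and Tgfa. The same held for 8.71% of tested genes. The log2 ratios of isolations 1 to 5 were 0.89, 0.36, 0.42, 1.06 and 0.55 for Erbb3. For Tgfa they were 0.82, 0.88, 0.20, 0.71 and 0.71, and for Erbb2 0.41, 0.11, 0.18, 0.64 and 0.53. The smallest ratios of Erbb2 and Tgfa were close to 0, and no single isolation carried the direction of these 3 genes.

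The count depends on the scale. On deposited TPM isolation 3 turned to -0.11 for Erbb3, -0.35 for Erbb2 and -0.33 for Tgfa, so none of the 9 genes was higher in all 5 isolations, beside 5.87% of all genes. On CPM without scaling factors 1 was, Erbb3, beside 5.83%. Isolation 3 holds Lgr5 AL replicate 3, the library with the lowest depth and the largest scaling factor, 1.215. With isolation 3 left out the TPM count was 3, beside 13.2% of all genes over the remaining 4 isolations.

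With isolation as a block, the shared log2 fold change of CR over AL was 0.67 for Tgfa (SE 0.138, edgeR adjusted p = 0.09), 0.66 for Erbb3 (SE 0.142, edgeR adjusted p = 0.0995) and 0.37 for Erbb2 (SE 0.121, edgeR adjusted p = 0.2). None of the 9 passed the threshold, beside 0.297% of genes, and these 3 were the ones with an unadjusted p under 0.05, as 9.83% of genes had with CR higher. With DESeq2, 2 of the 9 passed, Erbb3 (0.63, adjusted p = 0.0023) and Tgfa (0.64, adjusted p = 0.00352), where 6.81% of genes passed. Over the 9 genes the median was 0.33 against 0.01 for all genes, and 8 of the 9 fold changes were positive, where 51.0% of all genes were.

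The remaining genes varied more among isolations. Egfr had log2 ratios of 0.49, 0.01, 0.11, 0.88 and -0.10 and a shared fold change of 0.27 (SE 0.162, edgeR adjusted p = 0.444). Areg had ratios of 0.74, 2.61, 2.14, -1.84 and 0.97, and a shared fold change of 0.97 (SE 0.665, edgeR adjusted p = 0.51), which ran from 0.53 without Lgr5 AL replicate 2 to 1.59 without Hopx CR replicate 1. Hbegf ran from -0.33 to 1.37, Btc from -0.42 to 1.34, Egf from -1.54 to 1.09 and Ereg from -2.64 to 2.37, each with ratios on both sides of 0.

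**Figure D2:**
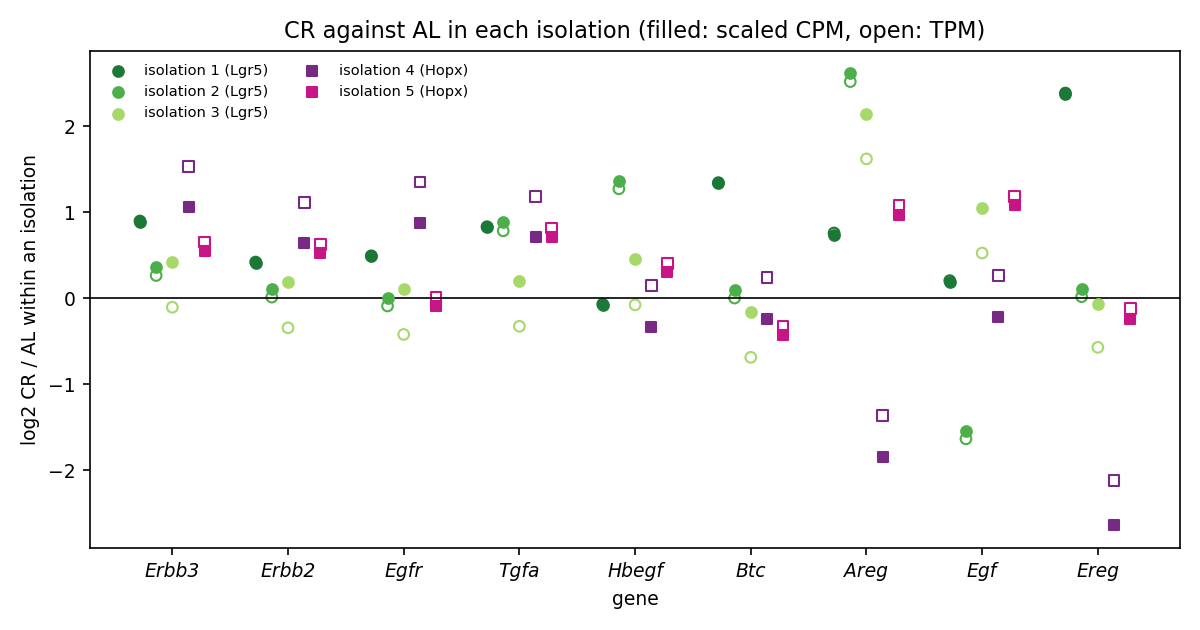
Log2 ratio of the CR over the AL library within each isolation for the 9 genes, with filled symbols for scaled CPM and open symbols for TPM, circles for Lgr5 and squares for Hopx isolations. The filled points of Erbb3, Erbb2 and Tgfa all lie above 0, the open points of isolation 3 lie below 0 for these 3 genes, and Areg and Ereg spread over more than 4 log2 units.

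Markers of other cells were read in the same pairs, and none passed the threshold by edgeR. With isolation as a block, 8 of 8 enterocyte markers had positive fold changes (median 1.18), 8 of 8 tuft markers negative ones (median -1.04) and 11 of 11 immune markers negative ones (median -0.59), while 7 general epithelial markers had a median of -0.003. A positive fold change was found for 51.0% of all genes. At an unadjusted p under 0.05 there were 8 enterocyte, 2 goblet and 1 epithelial marker higher under CR, as were 9.83% of genes. Lower under CR at that threshold were 4 tuft, 2 immune and 1 enteroendocrine marker, and no Paneth marker passed it in either direction. Paneth (4 positive, 6 negative), goblet (4 and 4), enteroendocrine (3 and 5) and stromal or vessel markers (4 and 3) had fold changes of both signs. These shared values cover unlike ones: tuft markers had a median of -1.91 in Lgr5 cells and -0.13 in Hopx cells. In the same order, immune markers had medians of -0.23 and -1.73 and Paneth markers of 0.28 and -0.67. Enteroendocrine markers had 0.58 and -0.91, and enterocyte markers 0.79 and 0.97. Summed enterocyte markers were at 4181 to 23220 CPM under AL and 16440 to 21780 under CR in Lgr5 cells, and at 6330 to 9536 under AL and 14780 to 17740 under CR in Hopx cells. Summed immune markers were at 48.5 to 291 CPM under AL and 77.2 to 169 under CR in Lgr5 cells, and at 194 to 323 under AL and 67.9 to 96.7 under CR in Hopx cells, and none of the immune or enterocyte genes was at 0. The part of these markers in the diet values of the ErbB genes was not tested. Markers of stroma and vessels, a known source of ErbB ligands around the crypt, summed to 6.13 to 12.6 CPM over all libraries, with Pdgfra, Dcn and Cdh5 at 0 in 4 libraries each.

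Between the populations, 7 of the 9 genes were lower in Hopx than in Lgr5 cells by the fold change averaged over both diets, a sign that 49.5% of all genes had, with a median of -0.33 beside 0.01 for all genes. None of the 9 passed the threshold by edgeR, which 1.33% of genes did. At an unadjusted p under 0.05 there were 3, all lower in Hopx cells, as were 9.03% of genes. Erbb2 had a log2 fold change of -0.44 (SE 0.122, edgeR adjusted p = 0.0994), Erbb3 of -0.58 (SE 0.17, edgeR adjusted p = 0.113) and Tgfa of -0.33 (SE 0.131, edgeR adjusted p = 0.211). With DESeq2, Erbb2 (-0.46, adjusted p = 0.00463) and Erbb3 (-0.60, adjusted p = 0.0145) passed, where 8.80% of genes passed. For each of the 9 genes the CPM values of the populations overlapped.

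The gap was also read within each diet. Under AL the log2 fold change of Hopx over Lgr5 cells was -0.61 for Erbb2 (SE 0.173, edgeR adjusted p = 0.13) and -0.69 for Erbb3 (SE 0.242, edgeR adjusted p = 0.185), with 0.0189% of genes past the threshold in each diet. DESeq2 called both under AL (adjusted p = 0.00613 and 0.0493), with 7.17% of genes. Under CR it was -0.27 for Erbb2 (SE 0.171, edgeR adjusted p = 0.874) and -0.46 for Erbb3 (SE 0.24, edgeR adjusted p = 0.852). Whether these gaps differ is the interaction tested above, which passed for neither gene. Areg had 1.86 under AL (SE 0.759, edgeR adjusted p = 0.241) and -0.55 under CR (SE 0.768, edgeR adjusted p = 0.97). The value under AL was 0.16 without Hopx AL replicate 1 and 2.80 without Lgr5 AL replicate 1. Egfr had -0.06 over both diets (SE 0.203, edgeR adjusted p = 0.906).

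The scale matters here as well. On log2(TPM + 1) with limma, where 8 of the 9 genes passed a filter of 1 TPM and Ereg did not, Erbb2, Erbb3 and Tgfa passed the threshold over both diets, at -0.97, -1.09 and -0.75 with limma adjusted p-values of 0.0112, 0.0128 and 0.0281. On that scale 30.1% of genes passed (31.6% on log2(TPM + 0.1)) and the median of all genes was itself -0.45, against 0.01 after scaling of the counts. Under AL, 3 of the 9 genes passed on either TPM scale, beside 29.9% and 31.1% of genes. Paneth, enteroendocrine and tuft markers all had positive fold changes in Hopx over Lgr5 cells (10 of 10, 8 of 8 and 8 of 8, with medians of 0.85, 1.47 and 0.70), and 8 stem cell markers had a median of -0.72. Goblet markers were positive in 7 of 8 (median 0.905). Immune (2 of 11 positive, median -0.38) and enterocyte markers (3 of 8, median -0.27) were mostly negative, a sign that 49.5% of all genes had. These averages cover unlike values by diet. Tuft markers were positive in 3 of 8 under AL (median -0.155) and in 8 of 8 under CR (1.73). Immune markers were positive in 8 of 11 under AL (0.304) and in 2 of 11 under CR (-1.17). Paneth markers were positive in 10 of 10 under AL (1.60) and in 6 of 10 under CR (0.308). By edgeR over both diets, 3 enteroendocrine, 2 goblet and 1 immune marker passed the threshold as higher in Hopx cells. The threshold was also passed by 1 stem cell marker, lower in Hopx cells, where 1.33% of all genes passed. The part of these markers in the lower receptor values was not tested.

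**Figure D3:**
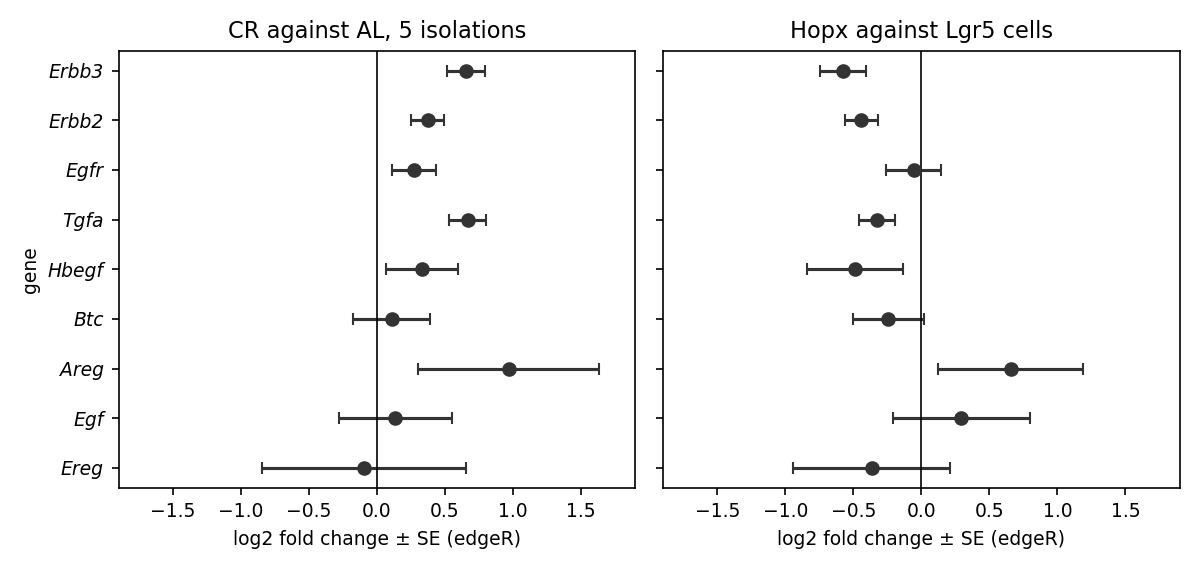
Log2 fold change with its standard error from edgeR for each of the 9 genes, with CR over AL within the 5 isolations on the left and Hopx over Lgr5 cells over both diets on the right. Erbb3, Erbb2 and Tgfa lie to the right of 0 for diet and to the left of 0 for cell population with short error bars, and Areg, Egf and Ereg have the longest bars.

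Across the 10 libraries Erbb2 and Erbb3 varied together. On log2 scaled CPM, Pearson's r was 0.96 (permutation p = 2e-05, adjusted over the 36 pairs of members 0.00072), and Spearman's rho was 0.90 (permutation p = 0.00077, adjusted 0.0277). With the 2 libraries farthest from the median of Erbb2 left out, r was 0.90 (n = 8), over the 6 Lgr5 libraries 0.98, and after the group means were subtracted 0.86. Erbb3 and Tgfa had r = 0.83 (permutation p = 0.00216, adjusted 0.0389) and rho = 0.85 (permutation p = 0.00306, adjusted 0.0551), with r = 0.74 without the 2 farthest libraries. After subtraction of the group means that relation was at 0.06, so it lay between groups and not within them. Erbb2 and Egfr had r = 0.64, which did not pass after adjustment (0.325) and turned to -0.36 without the 2 libraries farthest from the median of Egfr. It was 0.78 over the 6 Lgr5 libraries and 0.81 after subtraction of the group means, so these values do not give one answer. These libraries share groups and scaling factors, and only the first pair stayed past 0.05 after adjustment by both measures. After subtraction of the group means, the 2 libraries of each Hopx group mirror each other. The r values after subtraction therefore rest on fewer than 10 independent points.

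**Figure D4:**
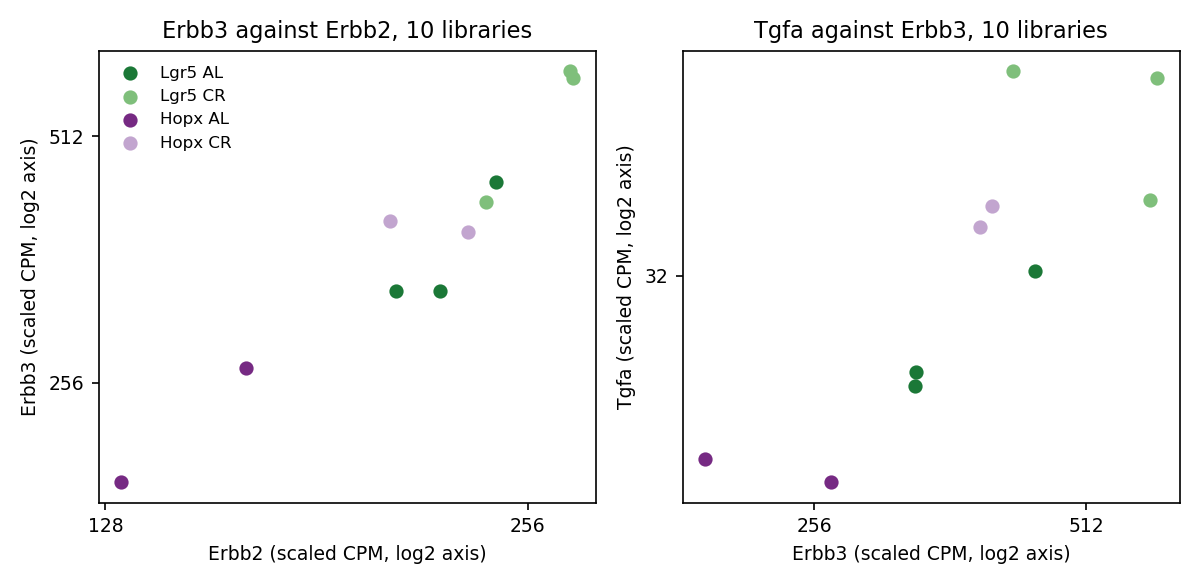
Scaled CPM on log2 axes, 1 point per library (n = 10) coloured by group, with Erbb3 against Erbb2 on the left and Tgfa against Erbb3 on the right. Erbb2 and Erbb3 rise along 1 line from the Hopx AL to the Lgr5 CR libraries, while Tgfa and Erbb3 order the groups but scatter within them.

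The genes whose log2 CPM was most like that of each member over the 10 libraries were picked from 9933 genes of at least 5 CPM. For the receptors these were Muc4 (r = 0.95) and Kif4 (0.94) for Egfr, Plekhh1 (0.96) and Chdh (0.96) for Erbb2, and Chp1 and Med14 (both 0.96) for Erbb3. For the ligands they were Pdk1 (0.93) and Aplp2 (0.91) for Tgfa, Rasgef1b (0.96) and Smad7 (0.93) for Hbegf, Pan3 (0.95) and Pak2 (0.95) for Btc, and Tom1l1 (0.93) and Flot1 (0.92) for Areg. Egf was most like Epc1 (0.88) and Gpt2 (0.87), and Ereg most like Fahd2a (0.84) and Fance (0.83). These are the highest of many values over few libraries and are given as a description.

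The rest of the family was scarce except Nrg4, a neuregulin that binds Erbb4. Nrg1, the main ligand of Erbb3, had 0 counts in all 10 libraries, where 3 counts would correspond to 0.0363 to 0.122 CPM. Erbb4, the remaining receptor, lay between 0 and 0.26 TPM, Epgn between 0 and 0.52 TPM, Nrg2 at most at 0.23 TPM and Nrg3 at most at 0.034 TPM. Nrg4 averaged 10.5 ± 6.35 TPM under AL and 7.39 ± 1.59 under CR in Lgr5 cells (SD, n = 3 each), and 3.75 ± 1.42 and 4.10 ± 0.446 in Hopx cells (n = 2 each). It did not pass the test for Hopx over Lgr5 cells (-0.58, SE 0.248, edgeR adjusted p = 0.236) or for diet within isolations (-0.14, edgeR adjusted p = 0.797).

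Of the 7 genes that release ligands or control that release, none passed by edgeR for diet within isolations or between populations. Adam10, a protease that cuts Egf and Btc free, averaged 26.3 TPM under AL and 29.8 under CR in Lgr5 cells and 17.0 and 22.9 in Hopx cells. Adam17, which cuts Tgfa, Areg and Hbegf, averaged 12.1, 11.4, 6.34 and 6.29 TPM in the same order. On scaled CPM, Hopx AL was not lower than Lgr5 AL for Adam10 and close to it for Adam17, which stayed lower in Hopx cells under CR. In that order Adam10 averaged 87.3, 120, 102 and 113 CPM, and Adam17 35.4, 41.9, 34.2 and 28.4 CPM. For diet, 6 of 7 fold changes were positive, where 51.0% of all genes were, with a median of 0.23. Among them were Rhbdf2 (0.35), Adam10 (0.32), Timp3 (0.69) and Frmd8 (0.23). Between populations the median was -0.31, and Rhbdf1, an inactive rhomboid that escorts Adam17, was lower in Hopx cells without overlap of the libraries, at -0.65 (edgeR adjusted p = 0.0589). Rhbdf2 was at -0.33, Frmd8 at -0.35 and Adam9 at 0.46. DESeq2 called Rhbdf1 and Rhbdf2 between populations (adjusted p = 0.000765 and 0.0184), where it called 8.80% of all genes. Hopx libraries lay below all Lgr5 libraries without overlap for 1.93% of all genes.

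The 12 receptor inhibitors also held no gene past the threshold by edgeR. Lrig1, a membrane protein that lowers ErbB receptor levels and marks crypt stem cells, averaged 50.9 TPM under AL and 54.2 under CR in Lgr5 cells, and 14.7 and 26.8 in Hopx cells. Its fold change was -0.83 between populations (SE 0.23, edgeR adjusted p = 0.102) and 0.44 for diet (SE 0.184, edgeR adjusted p = 0.291), the same signs as Erbb2 and Erbb3. The phosphatase Ptprj was at -0.67 between populations (edgeR adjusted p = 0.0729), and the ubiquitin ligases Cbl and Cblc were at -0.52 and -0.38. For diet 11 of 12 were positive, where 51.0% of all genes were, with a median of 0.22. Among them were Lrig3 (0.60) and Ptprj (0.34), and Socs5 was at -0.53. DESeq2 called Lrig1 and Ptprj between populations (adjusted p = 0.00931 and 0.00136) and Lrig3 for diet (adjusted p = 0.0321). It called 8.80% and 6.81% of all genes in those contrasts.

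Among the 17 genes of the Ras-MAPK relay the medians were 0.07 for diet and -0.01 between populations, with none past the threshold by edgeR. For diet the smallest p-values belonged to Braf (0.73), Sos1 (0.51), Rasa1 (0.40) and Grb2 (-0.19). Gab1, an adaptor of ErbB receptors, was at -0.82 between populations (edgeR adjusted p = 0.0611, DESeq2 adjusted p = 0.00097), Rasa1 at 0.64 and Hras at 0.41. The 8 genes of the PI3K-AKT relay all had positive fold changes for diet, where 51.0% of all genes did. Their median was 0.24 and none passed the threshold by edgeR: Akt2 was at 0.41, Pik3r2 at 0.34 and Pik3cb at 0.27. Between populations Akt2 was at -0.42, Pik3r2 at -0.36 and Pik3cb at -0.14, with a list median of -0.10.

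For Hopx over Lgr5 cells over both diets, 1.33% of all genes passed the adjusted threshold with edgeR. Of the pathway lists, 1 gene passed in any of the 7 contrasts, and it did so there. This was Dusp4, a nuclear phosphatase that MAPK signalling induces and that switches MAPK off. Dusp4 was at 12.5, 8.72 and 11.8 CPM under AL and 14.4, 13.1 and 14.3 under CR in Lgr5 cells, and at 3.76 and 4.87 under AL and 7.38 and 3.98 under CR in Hopx cells. All Hopx libraries lay below all Lgr5 libraries, as for 1.93% of genes, and Dusp4 was lower in Hopx cells by a log2 fold change of -1.32 (SE 0.234, edgeR adjusted p = 0.0352). The call held without Lgr5 AL replicate 1 and without Hopx CR replicate 1, and ended without any single one of the other 8 libraries, with adjusted p-values of up to 0.169 by edgeR. The remaining 18 MAPK target and feedback genes did not pass by edgeR. Spry4, an inhibitor of receptor tyrosine kinase signalling, was named after its values were seen. It was at 0.178, 0.463 and 0.0406 CPM under AL and 0.752, 2.16 and 1.73 under CR in Lgr5 cells, with a log2 fold change of 2.69 (edgeR adjusted p = 0.278) that DESeq2 called (2.66, adjusted p = 0.0307). The AL values of Spry4 rest on 1 to 20 estimated counts. DESeq2 also called Spry4 higher in Hopx than in Lgr5 cells under AL (2.61, adjusted p = 0.0349). It called 2.30% of all genes for CR over AL in Lgr5 cells and 7.17% for Hopx over Lgr5 under AL. For diet within isolations, Fosl1 was at 1.69 (edgeR adjusted p = 0.249), Etv4 at 0.81, Dusp6 at 0.62 and Myc at 0.27, and between populations Spred3 was at 2.04, Etv5 at 0.70 and Myc at -0.49, which DESeq2 called (adjusted p = 0.0272). Between populations DESeq2 called 8.80% of all genes. The 19 genes had medians of 0.15 for diet and -0.05 between populations.

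**Figure D5:**
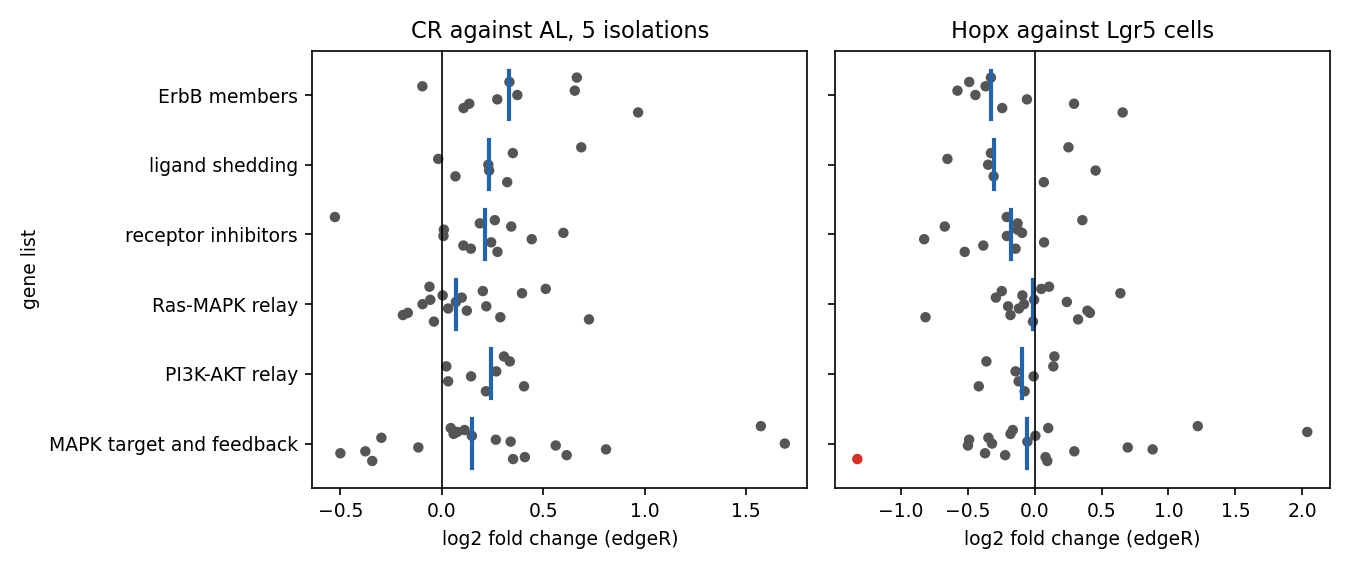
Log2 fold changes from edgeR for the 9 ErbB genes and 5 pathway lists, 1 point per gene with a bar at the list median, for CR over AL within isolations on the left and Hopx over Lgr5 cells on the right. All points are grey except Dusp4 in red on the right, the 1 gene past an edgeR adjusted p of 0.05. In that contrast 1.33% of all genes passed. The medians lie between 0.07 and 0.33 on the left and between -0.33 and -0.01 on the right.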

How the data were processed

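Per the labels' protocols, RNA of sorted cells was extracted with TRIzol LS, amplified with SMART-Seq v4, made into Nextera XT libraries and sequenced on a NextSeq 500. Neither molecular identifiers nor the strand are kept, so amplified copies are counted and overlapping genes cannot be told apart. The authors deposited estimated counts and TPM per gene symbol, made with kallisto per the submitters' processing notes, which also name edgeR and the human build GRCh38 although the symbols are mouse. Versions, filters and annotation: not given in the sources used here.

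Estimated counts were rounded, filtered with filterByExpr (minimum count 10), scaled by TMM and fitted with edgeR 4.0.16 (quasi-likelihood, R 4.3.3) on all 10 libraries, with a mean per group, or with isolation plus diet for the paired contrast. Isolation pairs the samples per the labels. Within isolations 1 to 5, deviations from the group means correlated at 0.082, 0.208, 0.071, 0.045 and 0.045. Each Hopx group holds 2 libraries, whose deviations mirror each other, so isolations 4 and 5 give the same value by construction. Two-sided p-values were adjusted by Benjamini-Hochberg over 15839 genes, threshold 0.05. The script was tested on simulated data. Levels are scaled CPM or deposited TPM. Depth was 20251405 to 87215705 estimated counts per library, and p-values measure the spread between animals. Alternatives were DESeq2 1.42.0, limma 3.58.1 on log2(TPM + 1) or log2(TPM + 0.1), upper-quartile scaling, no filter, the block, and leaving out each library. Ratios per isolation were also read on other scales and without each isolation, chosen after seeing the data.

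The genes, lists and tests were chosen with earlier results of these data known. All 9 genes are named. Of each pathway list, genes past the threshold and up to 4 with the smallest p in the paired diet contrast and the population contrast are named, except some that are not reported here, and the 2 most alike genes per member are the likeness picks.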

Additional observations from a re-analysis of the deposited data

How the results depend on the processing

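Groups of 2 and 3 libraries, and the low counts of Areg and Ereg (8 in the poorest library), limit what could be detected. The number of the 9 genes past the threshold was 0 with edgeR in all 7 contrasts, and stayed 0 under upper-quartile scaling, without the low-count filter, with each library left out and with isolation as replicate block in the 3 diet contrasts of the group fit, or without that block for the paired contrast. The block cannot be fitted between populations. DESeq2 gave 1 gene for CR over AL in Lgr5 cells (Tgfa, 0.60, adjusted p = 0.0427), 2 for the isolation pairs, 2 for Hopx over Lgr5 under AL (Erbb2 and Erbb3) and 2 over both diets. In the same order DESeq2 called 2.30%, 6.81%, 7.17% and 8.80% of all genes. On log2(TPM + 1) and log2(TPM + 0.1), limma gave 3 for Hopx over Lgr5 under AL and 3 over both diets, where it called 29.9% to 31.6% of genes and the median of all genes lay between -0.72 and -0.45. The count of genes higher under CR in every isolation was 3, and was 1 on CPM without scaling factors, 0 on TPM, 4 without isolation 4 (Areg added, 12.4% of all genes) and 4 without isolation 5 (Egfr added, 12.0%), against 8.71% of genes with all 5.

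These fold changes, none past the threshold, changed sign. For CR over AL in Lgr5 cells, Egf was -0.071 with isolation as replicate block, -0.079 on log2(TPM + 1), -0.246 on log2(TPM + 0.1) and -0.56 to 0.58 with 1 library left out, and Egfr was -0.011 on log2(TPM + 1) and -0.007 on log2(TPM + 0.1). In Hopx cells, Hbegf was -0.016 with the replicate block, -0.057 under upper-quartile scaling and -0.41 to 0.38 with 1 library left out, where Egfr ran from -0.15 to 0.94, Areg from -1.63 to 0.79 and Egf from -0.60 to 1.62. Over the isolation pairs with 1 library left out, Btc ran from -0.19 to 0.25, Egf from -0.11 to 0.52 and Ereg from -0.68 to 0.50, while Erbb3 kept to 0.54 to 0.73 (edgeR adjusted p 0.177 to 0.261) and Tgfa to 0.61 to 0.79 (0.139 to 0.24). For Hopx over Lgr5 over both diets, Egf was -0.15 on log2(TPM + 1), -0.29 on log2(TPM + 0.1) and -0.46 to 0.66 with 1 library left out, Areg was -0.025 on log2(TPM + 1) and -0.19 to 1.13 with 1 left out, and Egfr ran from -0.38 to 0.16. The cause was not tested.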
